A study of Mus musculus with 18 samples.

Results

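Mrgprb1, Mrgprb2, Tac1 and Calca are described here in hematopoietic cells of murine bone marrow (BM), chiefly in the mast cells of fetal BM (FBM) at E16.5. They are 4 of the 20275 genes in the deposited matrix of mRNA counts and were listed by name, as genes of mast cell neuropeptide signalling. They were chosen by their UMI counts in these mast codes, which were already known, so their levels are a description and carry no test.

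The libraries are single-cell RNA libraries with antibody tags (CITE-Seq) from C57B6/J mice, for which the labels name no altered gene and no treatment, and no age for the adults. Hematopoietic progenitors (HPs) were sorted as CD45+, lineage-negative and Kit-positive, and stromal cells as negative for both CD45 and Ter119. E16.5 FBM gave 2 HP libraries, and E18.5 FBM, newborn (P0) BM and adult BM gave 1 each, beside 1 stromal library for each of the 4 stages. Each library was made from the pooled marrow of several mice, and the experiment was not repeated. The labels do not say whether the 2 E16.5 libraries share a pool, so they may differ by less than pools of other mice would. The sort on Kit means that only Kit-positive mast cells could be seen.

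Mast cells take part in IgE-driven allergy and can also be activated without IgE. In the mouse, Mrgprb2 is the mast cell receptor for basic secretagogues, including the neuropeptide substance P, and Mrgprb1 is a related receptor gene of the same cluster. Tac1 encodes the precursor of substance P and neurokinin A, and Calca encodes calcitonin and, through a different 3′ end, calcitonin gene-related peptide (CGRP). Substance P and CGRP are best known from sensory neurons.

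In the build of the study (mm10, GRCm38), Mrgprb1 lies on the minus strand at chr7:48444113-48456342 and Mrgprb2 on the same strand at chr7:48550965-48558086, with 94622 bases between them. Calca lies on the minus strand of the same chromosome at chr7:114631478-114636357, and Tac1 on the plus strand at chr6:7554879-7565834. The 3′ end of the annotated transcript Calca-201, which has 5 exons, is at position 114631478, and that of Calca-202, which has 4, is at 114633293, so counts per gene cannot tell the calcitonin and CGRP forms apart. Reads of the 2 receptor genes can be told apart, because none of the 4230 words of 50 bases in Mrgprb1 transcripts and none of the 2028 in Mrgprb2 transcripts occurred in another gene. In Calca 12 of 1678 such words (0.715%) were shared, all with Calcb, and in Tac1 none of 3442.

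The 250 bases before the start of 3 of the genes are shown because Mrgprb1 and Mrgprb2 are neighbours with related promoters while Calca, which was measured in the same cells, has a different set of short motifs. The sequences are from RefSeq for GRCm38.p6, run 5′ to 3′ on the strand of the gene, and have in capitals the motifs searched: the AP-1 site TGACTCA, the GATA cores AGATAA and TGATAA, the E-boxes CACGTG and CATGTG, and the CRE core TGACG, each on either strand. The windows are chr7:48456343-48456592 for Mrgprb1, chr7:48558087-48558336 for Mrgprb2 and chr7:114636358-114636607 for Calca, all on the minus strand.
Mrgprb1: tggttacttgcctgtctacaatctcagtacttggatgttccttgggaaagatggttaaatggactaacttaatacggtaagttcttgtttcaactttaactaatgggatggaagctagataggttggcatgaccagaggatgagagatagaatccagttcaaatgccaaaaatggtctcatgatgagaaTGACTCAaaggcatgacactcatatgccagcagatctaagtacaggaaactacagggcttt
Mrgprb2: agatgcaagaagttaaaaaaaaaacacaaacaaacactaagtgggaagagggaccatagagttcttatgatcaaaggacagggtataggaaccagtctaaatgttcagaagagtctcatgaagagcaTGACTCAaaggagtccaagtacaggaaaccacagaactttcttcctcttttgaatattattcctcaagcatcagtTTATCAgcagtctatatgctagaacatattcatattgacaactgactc
Calca: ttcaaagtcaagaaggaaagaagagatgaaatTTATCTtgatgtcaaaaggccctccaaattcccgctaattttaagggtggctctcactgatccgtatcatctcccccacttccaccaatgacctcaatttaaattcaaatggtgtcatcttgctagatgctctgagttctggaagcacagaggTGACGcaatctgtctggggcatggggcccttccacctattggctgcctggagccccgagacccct

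Both Mrgpr windows hold TGACTCA, which begins 61 bases before the start of Mrgprb1 and 123 bases before that of Mrgprb2. It is found in 1466 of the 32851 mouse promoters of this length in the RefSeq table, or 4.46%. Around it, 105 aligned columns were 71.4% identical between the 2 genes, with 5 gap columns. The longest run that both windows share, aagtacaggaaac (13 bases), lies outside that block, 24 bases before the start of Mrgprb1 and 107 before that of Mrgprb2. Mrgprb2 also holds TGATAA on the reverse strand 48 bases before its start (7.94% of promoters). The Calca window holds AGATAA on the reverse strand 218 bases before the start (9.99% of promoters) and TGACG 65 bases before it (17.8% of promoters), and lacks the other letters searched. The Tac1 window, chr6:7554811-7555060, was taken before the RefSeq start and overlaps the first exon of the longer annotated transcript Tac1-205, so its sequence is not shown. It holds AGATAA, the E-box CACGTG (6.02% of promoters) and TGACG in 2 places, and neither Mrgpr window holds any of these 3. CATGTG, which 12.3% of promoters hold, is in none of the 4 windows. A match to such letters is a description of the sequence and not evidence of binding.

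The HP libraries held 560 and 4752 cells (E16.5), 3477 cells (E18.5), 6208 cells (P0) and 5985 cells (adult), with 13974733 to 127489333 UMIs per library and a median of 6747 to 23291.5 UMIs per cell. The clusters deposited by the authors include the mast codes Mast1, Mast2i and Mast2ii at E16.5, Mast3 and Mast/Bas at E18.5, Mast3 and Mast4 at P0, and Mast4i and Mast4ii in the adult. They held 259, 1804, 203, 534 and 321 cells in the order of libraries above. All 12 mast markers examined (among them Cpa3, Cma1, Tpsb2, Kit and Ms4a2) were detected in the mast codes of every library, with a summed level of 57445 and 72059 CPM at E16.5, then 20776 (E18.5), 29318 (P0) and 37497 (adult). Of the other lists, that of macrophages was highest in the adult mast codes, at 3300 CPM against 28.4 to 431 CPM elsewhere. The leading genes of P0 Mast4 were collagen genes, and those of adult Mast4ii were C1qb, C1qc and C1qa, which are macrophage genes, so these codes are named here only by their deposited codes.

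Many cells of the small or shallow mast codes share their cell barcode with a deeper cell of the first E16.5 library. Of the 560 barcodes of E16.5 replicate 1, 330 were also in the adult library, 153 in the P0 library, 46 in the E18.5 library and 1 in E16.5 replicate 2. In the adult, 194 of the 201 cells of Mast4i had a shared barcode, 181 of them shared with E16.5 replicate 1, and in 172 of these the partner was in a mast code. The median of those 181 cells was 664 UMIs against 31043 in their partners, and a cell held 2.13% of its partner's UMIs in the median. Adult Mast4ii had 97 shared of 120 cells, P0 Mast4 208 of 274 and E18.5 Mast/Bas 40 of 41. In contrast, the deeper mast codes of E18.5 and P0 hardly shared any. These were 1 of 260 cells in P0 Mast3 and 7 of 162 in E18.5 Mast3, none of them shared with E16.5 replicate 1. E16.5 replicate 2, with 9 of 1804 mast cells shared, was likewise almost free of them. In E16.5 replicate 1 itself, which is deep, 57 of 106 Mast1, 68 of 85 Mast2i and 54 of 68 Mast2ii cells had a shared barcode. What the shared barcodes are due to was not tested, and the members' levels are given with and without those cells. Adult sums of marker lists, list genes and shares of genes called include them.

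**Figure D1:**
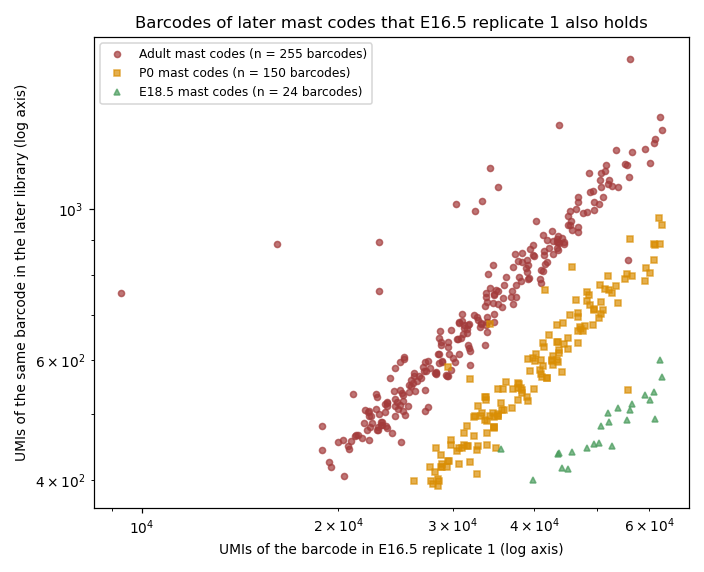
UMIs of a barcode in E16.5 replicate 1 (x axis, log scale) against the UMIs of the same barcode in a later HP library (y axis, log scale), for cells of the mast codes of the adult (255 barcodes), P0 (150) and E18.5 (24). The points form 3 nearly parallel bands, each far below the line of equal depth, with the E18.5 band lowest (0.925% of the partner's UMIs in the median of Mast/Bas) and the adult band highest (2.13% in Mast4i).

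Mrgprb2 had a graded pattern among the E16.5 mast codes. In Mast1 it reached 42.6 CPM (34.8 to 51.6, 104 UMIs) in replicate 1 and 27.6 CPM (24.8 to 30.6, 358 UMIs) in replicate 2. CPM is the share of a group's UMIs that belong to the gene, scaled to the usual total. The 95% intervals in parentheses are exact (Poisson for levels, Clopper-Pearson for shares) and cover counting error only. The Poisson intervals treat the UMIs of a cell as independent, so they are too narrow where few cells hold most UMIs. In Mast2i it was 11.9 CPM (8.30 to 16.6) and 6.79 CPM (5.37 to 8.48), and in Mast2ii 5.54 CPM (2.76 to 9.90) and 3.52 CPM (2.36 to 5.06). Both libraries gave the order Mast1, Mast2i, Mast2ii, and Mast1 did not overlap either of the others, whereas the intervals of Mast2i and Mast2ii overlapped in replicate 1. At least 1 Mrgprb2 UMI was seen in 32 of 106, 14 of 85 and 5 of 68 cells in replicate 1 and in 150 of 869, 34 of 499 and 19 of 436 cells in replicate 2. In the other T cell codes of replicate 2 (all T cell codes but TCell5), which should lack the gene, 23 of 1955 cells (1.18%) held a Mrgprb2 UMI, at a median of 22848 UMIs per cell against 13591 in Mast1.

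To compare shares at equal depth, each cell was thinned to 10000 UMIs, which left out 6, 2 and 0 shallower cells of Mast1, Mast2i and Mast2ii in replicate 1, 139, 12 and 27 in replicate 2, 11 of E18.5 Mast3 and 73 of P0 Mast3. At this depth, Mrgprb2 was found in 20 of 100 Mast1 cells, 13.3% of Mast2i and 4.41% of Mast2ii in replicate 1. The shares were 13.3%, 4.11% and 2.93% in replicate 2, against 0.424% of the T cells. In these values the order of the codes was thus the same at equal depth. All shares of replicate 2 lay above that of its T cells. Replicate 1 had only 5 such T cells, so its shares have no background of their own. Its codes other than mast codes held more Mrgprb2, at 6.36 CPM against 1.06 CPM in replicate 2. The Mono/Mast code, which is not counted among the mast codes, held Mrgprb2 at 10.6 CPM (41 UMIs) and 4.59 CPM (17 UMIs).

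Mrgprb1 was carried by few cells. In replicate 1 it had 5 UMIs in Mast1 (3 cells), none in Mast2i and 13 in Mast2ii, all 13 in 1 cell. In replicate 2 it was at 4.32 CPM in Mast1 (56 UMIs in 20 cells), 0.697 CPM in Mast2i (8 UMIs in 5 cells) and 0.243 CPM in Mast2ii (2 UMIs in 1 cell). Replicate 2 therefore had the order of Mrgprb2, while 1 cell set the value of Mast2ii in replicate 1. The highest level outside the mast codes with more than 1 UMI was in HSPC1 of replicate 2, with 8 UMIs in 1 cell, and 3 of the 1955 T cells (0.153%) held a UMI.

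Tac1 was found in few cells too, and its level differed between the replicates. It had 2, 6 and 0 UMIs in Mast1, Mast2i and Mast2ii of replicate 1, in 1 cell each of the first pair. Replicate 2 gave 2.93 CPM (38 UMIs in 11 cells), 4.18 CPM (48 UMIs in 7 cells) and 6.31 CPM (52 UMIs in 7 cells). In Mast2ii the 3 cells with most Tac1 held 42 of the 52 UMIs (80.8%), so no order of the codes can be read from these values. No Tac1 UMI was seen in Mono/Mast or TCell5 of any library, and the T cells of replicate 2 had 3 positive cells of 1955 (0.153%).

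Calca had the pattern of Mrgprb2 in both libraries. It was at 216 CPM (198 to 235, 528 UMIs) in Mast1, 42.9 CPM (126 UMIs) in Mast2i and 16.6 CPM (33 UMIs) in Mast2ii of replicate 1. In replicate 2 the levels were 97.8 CPM (92.5 to 103, 1268 UMIs), 34.1 CPM (392 UMIs) and 17.8 CPM (147 UMIs). A part of the Mast1 level of replicate 1 came from single cells, since 3 cells with 220, 106 and 27 UMIs held 66.9% of it, and replicate 2, with 208 positive cells, had the same order. At 10000 UMIs per cell, 24.0%, 21.7% and 10.3% of the cells were positive in replicate 1. In replicate 2 the shares were 18.4%, 9.45% and 7.09%, against 0.901% of its T cells. The share of positive cells thus differed less between Mast1 and Mast2i than the level did.

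Read against all genes, Mrgprb2 and Calca passed the 4-fold rule as higher in Mast1 than in Mast2ii. For this, Mast1 of each library had to be at least 4-fold above Mast2ii of each library, also across libraries. At least 20 UMIs were needed in the higher group. This held for 0.224% of 10700 genes, and 0.439% were lower by the same rule. Mrgprb1 and Tac1 did not pass. Both genes that passed are among the leading genes of Mast1 in at least 1 library, and the codes came from clustering on these counts, so nothing follows from this count beyond the size of the difference. Ramp1, a subunit of the CGRP receptor, was also at least 4-fold higher within each library, at 44.2 and 78.8 CPM in Mast1 against 10.1 and 16.0 CPM in Mast2ii. Its Mast1 level in replicate 1 was less than 4-fold above Mast2ii of replicate 2, so it did not pass the rule. Fcer1a, the alpha chain of the IgE receptor, was at 20.1 and 20.7 CPM against 1.51 and 7.16 CPM.

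**Figure D2:**
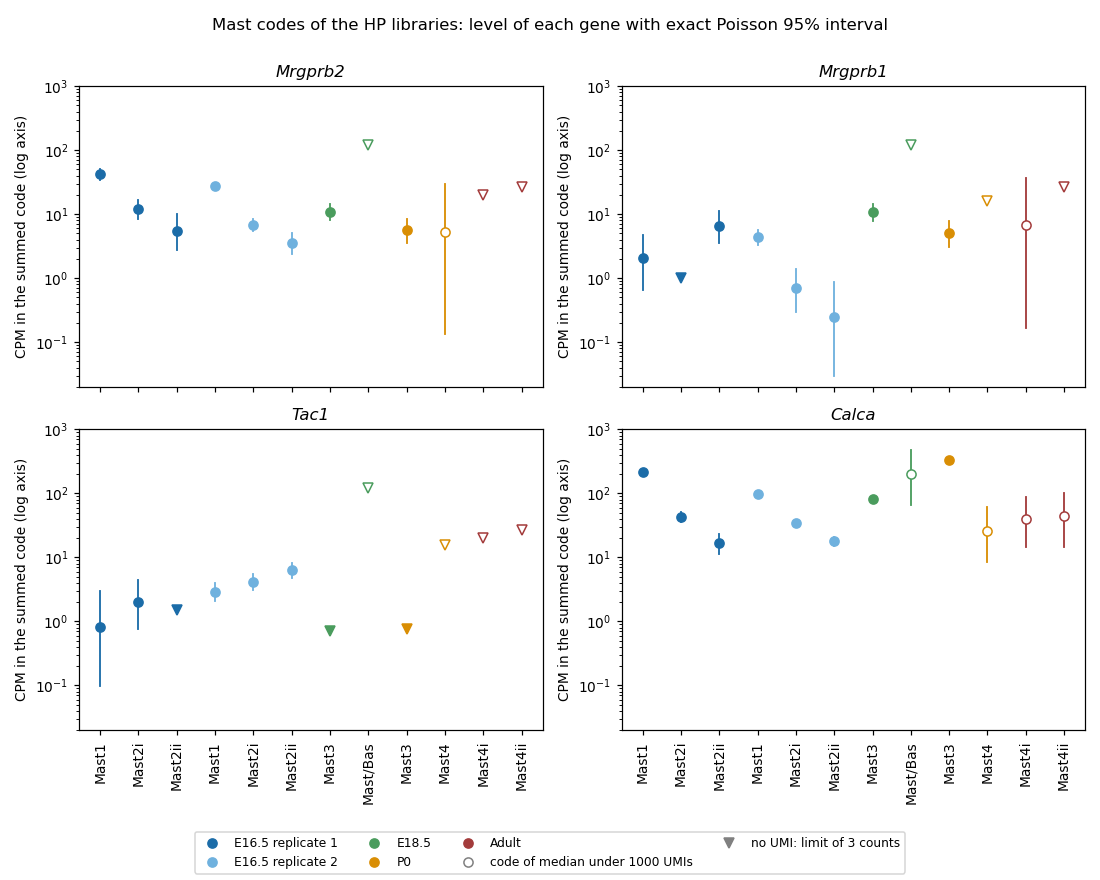
Level in CPM (log axis) of Mrgprb1, Mrgprb2, Tac1 and Calca in every mast code of the 5 HP libraries, with bars for the exact 95% Poisson interval, open symbols for codes with a median under 1000 UMIs per cell and triangles at the limit of 3 UMIs where none was counted. Mrgprb2 and Calca go down from Mast1 to Mast2ii in both E16.5 libraries, Calca is highest in P0 Mast3 (338 CPM), and Tac1 has no UMI after E16.5.

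Over all mast codes of a library, Mrgprb2 was at 20.4 and 14.2 CPM in the 2 libraries of E16.5 (150 and 465 UMIs), at 10.9 CPM at E18.5 (46 UMIs), at 5.60 CPM at P0 (23 UMIs) and without a UMI in the adult. It was highest in both E16.5 libraries, lower at E18.5 and lowest at P0 among the 3 stages where it was counted. The log2 ratio to the mean of E16.5 was -0.67 (-1.12 to -0.25) at E18.5 and -1.63 (-2.29 to -1.04) at P0, where the level was 3.09-fold lower, beside an SD of 0.37 between the E16.5 libraries. Here and below, intervals of ratios to E16.5 cover counting error of the later library only, with the E16.5 mean taken as fixed. The mast protease gene Cpa3 was lower at E18.5 and P0 too, at 14249 and 18171 CPM at E16.5, 6777 CPM at E18.5 and 8186 CPM at P0. Per 1000 Cpa3 UMIs, Mrgprb2 was at 1.43 and 0.783 at E16.5, 1.61 at E18.5 and 0.684 at P0, which puts E18.5 above both E16.5 libraries. With 1 library at each later stage, whether stages differ beyond the spread between libraries could not be tested. In the adult no bound can be given, since without the shallower cells of shared barcodes the limit of 3 UMIs was 40.8 CPM, above the E16.5 mean of 17.3 CPM.

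The lower Mrgprb2 of later stages was also read at equal depth. At 10000 UMIs per cell, 4.64% of E18.5 Mast3 and 2.14% of P0 Mast3 cells held Mrgprb2. The E18.5 value was near Mast2ii of replicate 1 and Mast2i of replicate 2, and the P0 value was below that of every E16.5 code. Before thinning, only 12 cells of E18.5 Mast3 and 11 of P0 Mast3 held Mrgprb2. These shares thus rest on few cells and give no firm rank. At 1000 UMIs per cell the shares over all mast codes were 2.41% (E16.5, mean of 2 libraries), 1.23% (E18.5), 0.348% (P0) and 0% (adult). Their intervals overlapped, at 1.09% to 5.49% over the E16.5 libraries, 0.149% to 4.36% at E18.5 and 0.00882% to 1.93% at P0. In the adult, 0 of 69 cells allows a share of up to 4.35% by the limit of 3 counts and 5.21% by the exact interval. Where cells were taken as mast cells by their share of mast marker UMIs, the log2 ratio at E18.5 was 0.04. The order of E18.5 and E16.5 therefore depended on which cells were counted, and that of P0 and E16.5 did not in the alternatives run.

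Mrgprb1 was at 2.44 and 2.02 CPM at E16.5 (18 and 66 UMIs), 10.6 CPM at E18.5 (45 UMIs), 4.87 CPM at P0 (20 UMIs) and 3.80 CPM in the adult (1 UMI). The E18.5 level stood above both E16.5 libraries, with a log2 ratio of 2.25 (1.80 to 2.67), but its 45 UMIs came from 4 cells, of which 1 held 29 and another 11. Without the 3 cells with most Mrgprb1 in each library, the ratio turned to -1.69, from the 1 UMI that was left at E18.5. At 10000 UMIs per cell, 1.32% of E18.5 Mast3 and 1.60% of P0 Mast3 cells were positive, against 16 of 1626 mast cells (0.984%) in E16.5 replicate 2 and 3 mast cells (interval 0.247% to 3.45%) in replicate 1. These shares of later stages rest on 2 of 151 and 3 of 187 cells, with intervals of 0.161% to 4.70% and 0.332% to 4.62%. At 1000 UMIs per cell the shares were 0.111% (E16.5), 1.84% (E18.5) and 0.697% (P0), with E16.5 again the lowest of these 3 stages and intervals that overlap, and 0 of 69 cells in the adult. At P0 the 20 UMIs of Mast3 came from 7 cells, and the log2 ratio of 1.13 turned to -0.07 without cells that hold at least 3 genes of another lineage.

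Mrgprb1 was the only one of the 4 genes to pass the 4-fold rule against each E16.5 library at E18.5, where 1.53% of 11852 genes passed upward and 0.498% downward. None of the 4 passed at P0, where 2.56% passed upward and 0.538% downward. None passed in the adult, where the shares were 0.55% and 0.00846%. Not all of these calls could be made. At E18.5 and P0 the limit of 3 UMIs was only 3.74-fold and 3.64-fold below the E16.5 mean of Tac1, which therefore could not be called lower. In the adult it was only 1.52-fold below that of Mrgprb2, and the E16.5 means of Mrgprb1 and Tac1 were lower still. None of those genes could therefore be called lower in the adult. All 4 genes also had too few adult UMIs to be called higher.

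Tac1 had 8 and 138 UMIs in the E16.5 mast codes (1.09 and 4.22 CPM) and none in the mast codes of any later stage. Its libraries of E16.5 differed by an SD of 1.39 on the log2 scale, the widest of the 4 genes. The limit of 3 UMIs lay 3.74-fold below the E16.5 mean at E18.5 and 3.64-fold below it at P0. Against replicate 1 alone the limit was at -0.61 and -0.57 on the log2 scale. It treats UMIs as independent, so it is no firm bound on a level set by few cells. In Mast1, Mast2i and Mast2ii of replicate 2, the 3 highest cells held 22 of 38, 42 of 48 and 42 of 52 Tac1 UMIs. At 10000 UMIs per cell, 0 of 151 cells of E18.5 Mast3 and 0 of 187 of P0 Mast3 allow shares of up to 1.99% and 1.60%, against 1.10% to 1.47% in the codes of replicate 2. A difference in the share of Tac1-positive cells was therefore not detectable at this depth.

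Calca was at 93.2 and 55.3 CPM at E16.5 (687 and 1807 UMIs), 81.4 CPM at E18.5 (344 UMIs), 324 CPM at P0 (1330 UMIs) and 41.8 CPM in the adult (11 UMIs). The P0 level stood apart from the other 4 libraries, whereas E18.5 lay between the 2 E16.5 libraries, and without every shared barcode its log2 ratio to E16.5 turned to -1.18. The log2 ratio to E16.5 was 2.12 (2.04 to 2.20) at P0, or 4.36-fold, and 0.13 (-0.02 to 0.28) at E18.5, beside an SD of 0.53 at E16.5. With the mean over cells in place of summed UMIs, the log2 ratio at P0 was 0.95. That mean gives each cell equal weight, and 274 of the 534 mast cells at P0 are of Mast4, with a median of 564.5 UMIs. Calca did not pass the 4-fold rule at P0, because the ratio to replicate 1 was smaller, at 1.80 on the log2 scale. At 10000 UMIs per cell, 42.8% (35.6 to 50.2) of P0 Mast3 cells held Calca, higher than in each E16.5 code (7.09% to 24.0%) and in E18.5 Mast3 (21.9%). In P0 Mast4, in which most cells have a shared barcode, it was at 26.3 CPM from 5 UMIs.

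Leaving out the shallower cell of each shared barcode left the P0 value at 334 CPM and that of E18.5 at 80.7 CPM, since almost all UMIs there come from Mast3. In the adult the same step left 60 of 321 cells and 73496 UMIs, with 2 Calca UMIs (27.2 CPM) and no UMI of the other 3 genes. Leaving out every shared barcode kept 80 mast cells in replicate 1, in which Calca was at 330 CPM and Mrgprb2 at 54.6 CPM. The P0 level of Calca, 329 CPM, was then no higher than that of replicate 1, where the cells with 220 and 106 Calca UMIs remained. The adult values are thus too shallow to place any of the 4 genes, and the higher Calca at P0 holds against replicate 2 under this setting (55.5 CPM).

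**Figure D3:**
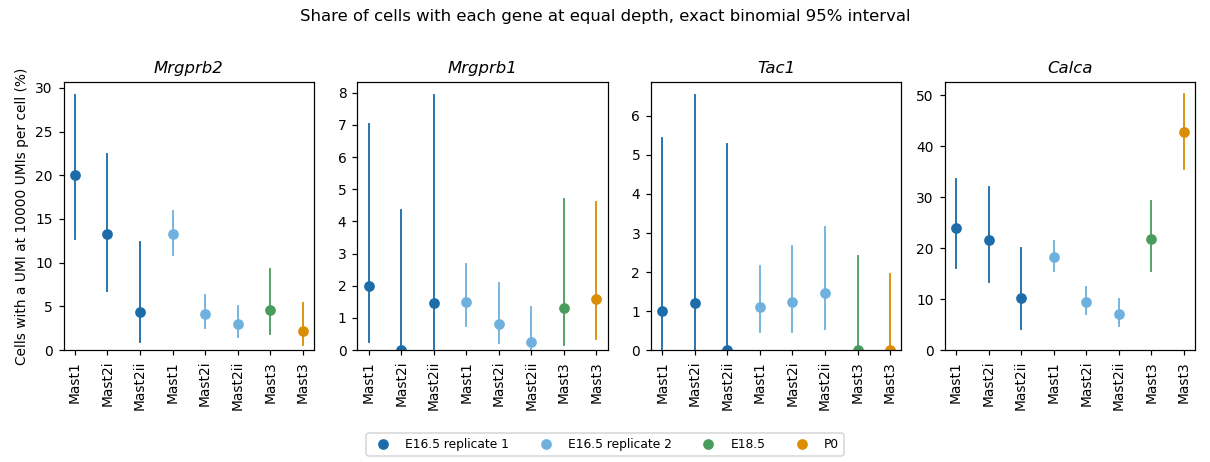
Share of cells (%) with at least 1 UMI of each gene after thinning every cell to 10000 UMIs, with exact 95% binomial intervals, in Mast1, Mast2i and Mast2ii of both E16.5 libraries and in Mast3 of E18.5 and P0. Mrgprb2 is found in at most 20 of 100 cells of any code, and Calca in 42.8% of P0 Mast3.

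Within a library, Mrgprb1, Mrgprb2 and Calca were higher in the mast codes than in all other HP codes summed, in all 4 libraries from E16.5 to P0. Tac1 was higher there only at E16.5, with 8 and 138 UMIs in the mast codes against 0 and 3 in the others, and at P0 its only UMI was outside them. Mrgprb2 was at 6.36 and 1.06 CPM in the other codes at E16.5, at 0 CPM at E18.5 and at 0.0973 CPM at P0, and Calca at 25.0, 9.88, 0.841 and 3.43 CPM. Mrgprb1 stayed at or below 0.348 CPM and Tac1 at or below 0.0475 CPM there. At E16.5 the log2 ratio of mast to other codes was 1.68 and 3.75 for Mrgprb2, and 1.90 and 2.48 for Calca in the 2 libraries. Mrgprb1 had 18 and 66 UMIs in the mast codes against 1 and 22 in the others, with 13 of the 18 in 1 cell. Mast marker genes were also higher in the other codes of replicate 1, with Cpa3 at 3303 CPM against 884 CPM in replicate 2, and Mono/Mast is 161 of its 301 other cells.

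By the 4-fold rule, 1 of the 4 genes (Mrgprb1) was called higher in the mast codes at E16.5, where 0.705% of all genes were, and 7.48% were called lower. At E18.5 and P0, 3 of the 3 genes with enough UMIs were called (Mrgprb1, Mrgprb2 and Calca), against 2.05% and 2.84% of all genes. By the same rule 4.2% and 2.3% were called lower. Mrgprb1 and Mrgprb2 had enough UMIs only through the mast codes, with 45 and 46 against 0 and 0 in the others at E18.5. At P0 they had 20 and 23 against 6 and 12. The members were also chosen by their counts in mast codes, so 3 of 3 is no evidence of enrichment. The folds at E18.5 were at least 215-fold for Mrgprb1 (from 4 cells), at least 220-fold for Mrgprb2 and 96.7-fold for Calca. Those at P0 were 100-fold for Mrgprb1 (20 against 6 UMIs), 57.5-fold for Mrgprb2 and 94.4-fold for Calca. None had enough UMIs in the adult, where 1.3% of genes were called higher and 0.952% lower. Since the codes were drawn on these genes among others, these folds describe the codes.

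Some of the genes met in the same cells at E16.5. At 10000 UMIs per cell in replicate 2, 12 of the 16 mast cells with Mrgprb1 (75.0%, 47.6 to 92.7) also held Mrgprb2, against 117 of 1610 cells without it (7.27%). In replicate 1 it was 2 of 3 cells against 12.9%. Cells with Mrgprb2 held Calca in 31 of 129 cases (24.0%, 16.9 to 32.3) in replicate 2 and 10 of 34 (29.4%, 15.1 to 47.5) in replicate 1. Of cells without Mrgprb2, 11.9% (10.3 to 13.6) and 18.0% (13.1 to 23.7) held it, so the intervals overlapped in replicate 1. Mrgprb2 and Calca were both highest in Mast1, and the part of the code in this pairing was not tested. Both libraries gave the same direction for these 2 pairs. For Mrgprb1 and Calca they did not, with Calca in 7 of 16 Mrgprb1-positive cells against 12.5% of the others in replicate 2 and in 0 of 3 against 19.8% in replicate 1. Tac1 was in 5 of 209 Calca-positive cells (2.39%) and in 1.06% of the others in replicate 2, from 20 Tac1-positive cells in all.

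Cells with one of the receptor genes had a high level of the mast marker list. Its summed level was 73527 and 102494 CPM in Mrgprb2-positive mast cells of the E16.5 libraries and 88356 and 102669 CPM in Mrgprb1-positive ones, against 57445 and 72059 CPM in all mast cells. Tac1-positive cells had 85980 CPM in replicate 2. Calca-positive cells lay closer to all mast cells, at 78772 CPM in replicate 2, and at P0 they had 37035 CPM against 68090 CPM in Mrgprb2-positive cells. The part of the cells' code in these sums was not tested.

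The genes around the members were read from lists by role. Of the 9 genes with a symbol starting with Mrgpr, Mrgprx2 was at 1.09, 0.918, 1.89 and 2.19 CPM and Mrgpre at 6.65, 5.23, 6.86 and 4.62 CPM in the mast codes from E16.5 to P0. Mrgprf, Mrgprd and Mrgprh had no UMI there. Against E16.5, 1 of the 4 family members with enough UMIs was higher at E18.5 (Mrgprb1, from 4 cells), where 1.53% of all genes were, and none at P0, with a list median of 0.56 and 0.38 on the log2 scale beside 0.21 and 0.13 over all genes.

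Among the peptide precursors, 18 of 23 listed genes were measured and 6 had enough UMIs to be compared with E16.5. None of these 6 passed the rule at any later stage, where 0.00846% to 2.56% of all genes did, by stage and direction. For Tac1 a call of lower could not be made at any later stage, because its E16.5 level was too near the limit of 3 UMIs. Nmb, the precursor of neuromedin B, was the other precursor with a clear level in mast codes, at 100.2 and 125 CPM (E16.5), 44.5 CPM (E18.5), 79.8 CPM (P0) and 129 CPM (adult), against 1.83 to 29.5 CPM in the other codes. Calcb, which encodes the second form of CGRP, had 1 UMI in all mast codes together, and Npy and Adcyap1 had none. Tac4, which encodes hemokinin, had 15 and 47 UMIs at E16.5.

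The prohormone convertases Pcsk1 and Pcsk2 and the granule proteins Scg5 and Scg3 had no UMI in the mast codes, and Cpe had 0 to 2. Furin, a convertase of the general secretory route, was at 46.6 and 34.9 CPM at E16.5, 54.7 at E18.5 and 66.7 at P0, and Pam, which amidates peptide ends, at 2.85 to 4.62 CPM in these libraries. Slc18a2, the vesicular amine transporter of granules, was at 117 to 131 CPM from E16.5 to P0. Of the 3 genes of this list with enough UMIs, none passed the rule at any later stage. Of all genes, 0.00846% to 2.56% did, by stage and direction.

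Of the receptors, Calcrl, which forms the CGRP receptor with Ramp1, was at 7.60 and 6.49 CPM in mast codes of E16.5, then 7.10 (E18.5) and 13.4 CPM (P0), and Ramp1 at 25.9, 45.7, 34.5 and 83.0 CPM. Ramp1 was higher outside the mast codes in every library, at 77.0 to 354 CPM. Of the 4 receptor genes with enough UMIs, 1 passed the rule at P0, where 2.56% of all genes were called higher, and none at E18.5 or in the adult. It was Ramp3, with 83 UMIs (20.2 CPM) against 0.814 and 0.428 CPM at E16.5. Tacr1, the receptor of substance P, had 1 UMI in all mast codes, and Mme, which encodes a peptidase of substance P, likewise 1.

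Of the 15 genes listed for signalling from Mrgprb2, Rgs13 was called lower at E18.5 and P0, where 0.498% and 0.538% of all genes were, at 152 and 170 CPM at E16.5, 21.3 at E18.5 and 18.0 at P0. Rgs13 encodes a regulator that dampens G protein signalling, and the other 14 genes, among them Gnaq, Plcb2 and Stim1, passed in neither direction. None of the 7 genes of the IgE receptor route passed. Of the 13 granule genes, Tpsb2, a tryptase, was lower at E18.5 (9275 and 11105 CPM at E16.5, 1523 CPM at E18.5), with a list median of -0.92 beside 0.21 over all genes. The other 12 did not pass, and 2 of them, the proteases Mcpt1 and Mcpt2, were at 66.7 and 514 CPM at E18.5 against 6.11 and 19.7 CPM, and 235 and 241 CPM, at E16.5.

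Calca was also found in a T cell code. TCell5 held it at 253 CPM (70 UMIs in 4 of 13 cells) and 145 CPM (390 UMIs in 33 of 186 cells) at E16.5, 26.3 CPM (29 UMIs in 5 of 65 cells) at E18.5 and 252 CPM (187 UMIs in 17 of 68 cells) at P0, and none of the other 3 genes in any library. It was the code outside the mast codes with most Calca UMIs in each of these 4 libraries. Of its cells, 6 of 13 in replicate 1, 1 of 65 at E18.5 and none in the other libraries had a shared barcode. Per 1000 UMIs of the mast gene Cpa3, TCell5 had 5000, 190, 192 and 1438 Calca UMIs, against 6.54, 3.04, 12.0 and 39.5 in the mast codes. The ratio was higher in TCell5 than in the mast codes in all 4 libraries, and the part of free RNA in these counts was not tested.

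The Calca-positive and Calca-negative cells of TCell5 differed in other genes, which were chosen after their values were seen. Xcl1, a chemokine of NK and cytotoxic T cells, had no UMI in the positive cells of any library and was at 66.3, 262, 330 and 344 CPM in the negative ones. Il1rl1, the receptor of IL-33, was at 513, 254, 136 and 303 CPM in the positive cells and at 55.3, 62.4, 22.4 and 24.8 CPM in the negative ones. Gata3, a transcription factor of T helper and innate lymphoid cells, was higher in the positive cells of all 4 libraries too, by little in replicate 1 (702 against 652 CPM) and at P0 at 548 against 99.2 CPM. Trdc, the constant region of the T cell receptor delta chain, was lower in the positive cells of all 4. Of the other genes examined there, Il7r and Icos were also higher in the positive cells of all 4 libraries, and Cd3e, a subunit of the T cell receptor complex, and Ccl5 lower in all 4, as was the mast gene Cpa3. Of those with a mixed direction, Rora, another transcription factor of innate lymphoid cells, was at 346, 420, 408 and 433 CPM in the positive cells and at 707, 309, 417 and 184 CPM in the negative ones. Arg1, which encodes arginase, was lower in the positive cells of replicate 1 (398 against 564 CPM) and higher in the other 3 libraries. Tcrg-C1, a constant region of the gamma chain, was lower in the positive cells of replicate 1 (83.8 against 166 CPM) and higher in the others. Il13 was lower in the positive cells at E18.5 only, by 0 against 0.973 CPM, and Ramp1 was higher in replicate 1 (83.8 against 11.1 CPM) and at E18.5 and lower in the other 2 libraries.

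**Figure D4:**
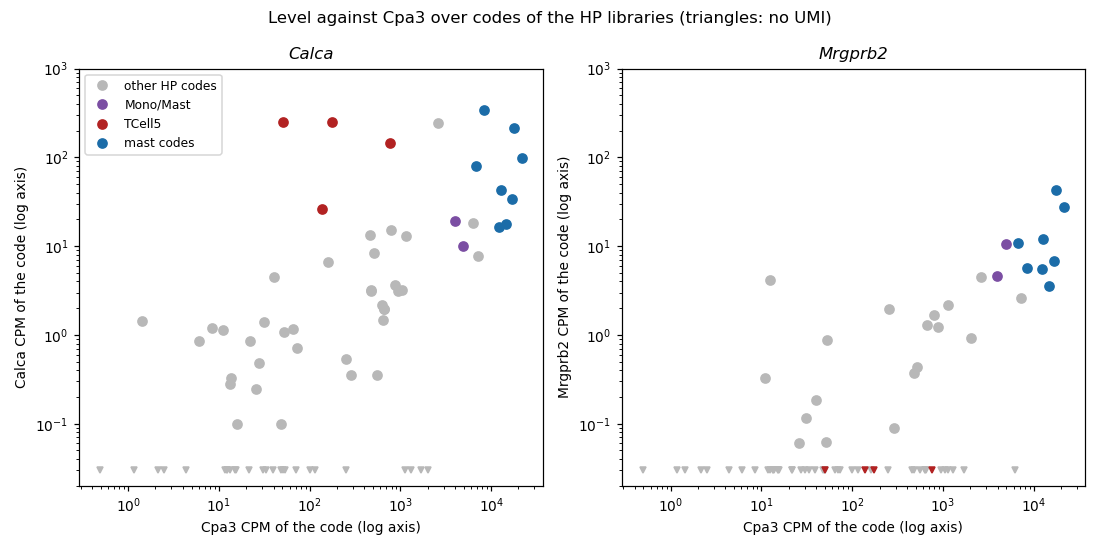
Level of Calca and of Mrgprb2 (y axes, CPM, log scale) against that of the mast gene Cpa3 (x axis, CPM, log scale) in each HP code with at least 10 cells, with mast codes in blue, Mono/Mast in purple, TCell5 in red and triangles for codes with no UMI. Mast codes with a median under 1000 UMIs are left out. TCell5 holds Calca at 26.3 to 253 CPM with Cpa3 at 50.6 to 766 CPM, and no Mrgprb2. The lone code beside them is UD2 of E16.5 replicate 1, with 53 of its 54 Calca UMIs in 1 cell.

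Antibody counts, which the choice of genes did not use, were read in Calca-positive cells of TCell5 and of the mast codes. These groups were already split by their codes. Counts of Calca-negative cells are not given beside them, so what part goes with Calca was not tested. In E16.5 replicate 2 the median count for CD90.2, an antigen of T cells among others, was 43 in Calca-positive TCell5 cells and 1 in Calca-positive mast cells. That for CD16 and CD32 was 0 and 28.5. Among mast cells, those with Mrgprb2 had a median CD16 and CD32 count of 34 against 26 in those without, and those with Tac1 36 against 27, from 25 and 1779 cells. The total antibody count differed in the same direction for Mrgprb2 (65 against 55), although the median RNA depth did not (13058 against 16999 UMIs). The part of total antibody staining in these medians was not tested.

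Over 73 sums of a code in a library, the genes most like each member were listed by Pearson's r of log2(CPM + 1) among 12662 genes, as a description in which sums share libraries and mast codes set the high values. Mrgprb2 was most like Ephx4 (0.87), Fndc8 (0.84), Ppp1r3g (0.84), Eno2 (0.83) and AC125141.3 (0.83), and Calca most like Caly (0.85), Lgals7 (0.84), Rnf128, Tesc and Rab27b (0.81 each). Mrgprb1 was most like Mcpt1 and Adamts9 (0.75 each), followed by Ednra, Mirg and Mcpt2 (0.68 each), where Mcpt1 and Mcpt2 are mast cell proteases. Tac1 had the weakest likeness, with Ppp1r3g at 0.70, Cst6 and Rab25 at 0.66 and Gm45623 at 0.64 among its nearest genes. The r of Mrgprb2 was 0.59 with Mrgprb1, 0.55 with Tac1 and 0.63 with Calca, so none of the other members was among its nearest genes. The names depended on the measure, and of 5 names 0 to 2 were kept per member with Spearman's rank correlation or a pseudocount of 10.

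Both peptide genes were also found in the stroma, and the receptor genes were not. Tac1 had 702, 587, 667 and 307 UMIs in the stromal libraries in order of stage, and Calca 680, 90, 141 and 15. Mrgprb1 had no UMI in 35219 stromal cells, and Mrgprb2 had 2, in P0 codes F3ii and F7. Tac1 was highest in E16.5 code F6, at 74.7 CPM (63.9 to 86.8, 170 UMIs in 52 of 184 cells), whose leading genes include Cxcl14, Twist2 and Dkk1, which is above its level in any mast code. It was at 21.2 CPM in E16.5 F4 (81 UMIs, 44 of them in 1 cell), 21.0 CPM in E18.5 C7 (176 of 229 UMIs in 3 cells), 16.3 CPM in E16.5 C3 (125 of 194 UMIs in 3 cells) and 15.9 CPM in adult F11.

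Calca was highest in E16.5 code UD1, at 505 CPM, but 319 of its 323 UMIs were in 1 of 62 cells. All 10 neuron markers examined were detected in that code (summed level 2491 CPM), with Tubb3, Stmn2 and Npy among its leading genes. Next was E16.5 F5, at 68.5 CPM (244 UMIs in 78 of 285 cells), with the tendon genes Tnmd, Scx and Kera in the lead. In the HP mast codes, in contrast, the neuron list was at or near 0, with none of its 10 genes detected in replicate 1, 4 of 10 at 3.15 CPM in replicate 2, 2 of 10 at 1.18 CPM at E18.5 and 1 of 10 at 0.973 CPM at P0. Calcrl was highest in stromal endothelial cells, at 134, 136 and 133 CPM in their code (ECs) from E16.5 to P0. Ramp2, with which Calcrl forms an adrenomedullin receptor, was at 850, 909 and 944 CPM there, and Ramp1 at 5.75, 3.19 and 1.64 CPM. Mme was highest in adult CARs (362 CPM), and Tacr1 reached 2.96 CPM in adult F8.

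**Figure D5:**
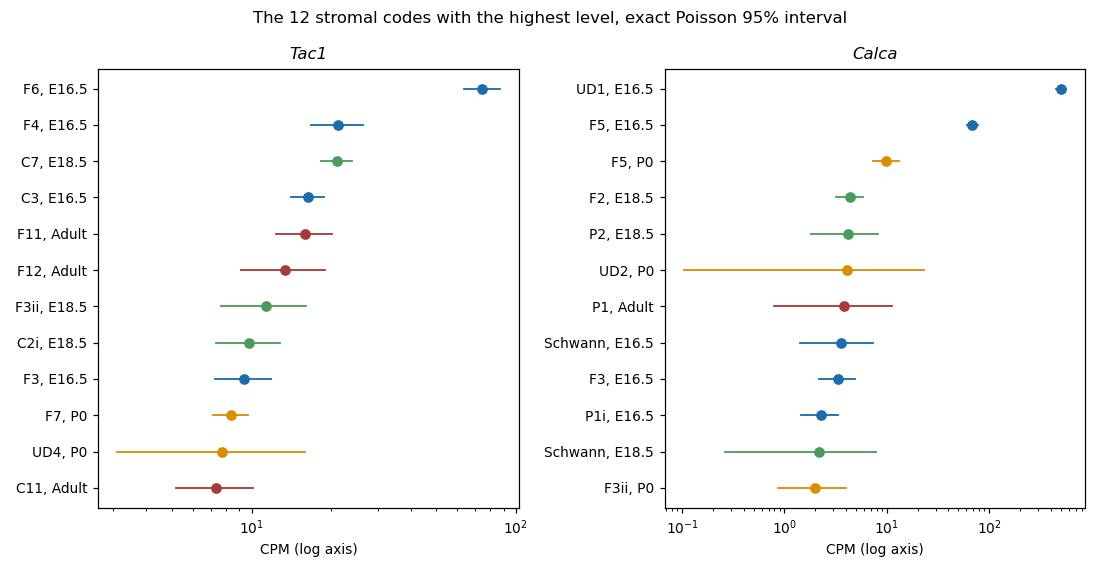
Level in CPM of Tac1 and of Calca in the 12 stromal codes of at least 20 cells where each was highest, with exact 95% Poisson intervals. F6 of E16.5 leads for Tac1 (74.7 CPM), and UD1 (505 CPM, from 1 cell in the main) and F5 (68.5 CPM) of E16.5 for Calca.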

How the data were processed

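The authors sorted HPs and stromal cells, built Chromium 3′ libraries with antibody tags and counted reads with Cell Ranger 3.1.0 on mm10. They kept genes seen in at least 30 cells and cells with at least 300 UMIs, under 7.5% mitochondrial UMIs and, to remove doublets, below the 98th percentile in gene and UMI number, and clustered with Seurat 3.1.5 in R 4.0. They deposited raw UMI counts of mRNA for 56201 cells (20982 HPs) and raw counts of 29 antibodies, with the cluster code of each cell and its mitochondrial share as a fraction. All deposited cells were used. No further doublets were called, and an alternative left out cells with at least 3 genes of another lineage.

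UMIs were summed per library and code and divided by the total (CPM), with exact 95% intervals. A gene was called where its CPM differed at least 4-fold between each pair of libraries compared, the same way, with at least 20 UMIs in the higher group and counts under 3 set to 3. No test was made, since stages after E16.5 have 1 library each. Mast codes hold 3121 cells, without Mono/Mast. Code for the calls and shares was tested on simulated data. Sequences and coordinates are from RefSeq for GRCm38.p6 and the GENCODE annotation of the same build. The members, gene lists and rule for named genes (the members, the lists by role and the 5 genes most like each member) were chosen with earlier results of these data known. Of the genes most like Tac1, 1 is not reported here. Python 3.11.15, numpy 2.4.6, scipy 1.17.1, pandas 2.3.3 and matplotlib 3.10.9 were used. Alternatives changed the mast cells counted, depth, summary, fold, minimum count and likeness measure.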

Additional observations from a re-analysis of the deposited data

How the results depend on the processing

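No paired analysis was possible because each stage after E16.5 has 1 library, and this holds for comparisons between stages only. Codes of the same E16.5 library do form pairs, and log2 ratios of mast to other codes were taken within each library. In replicates 1 and 2 they were 1.68 and 3.75 for Mrgprb2, and 1.90 and 2.48 for Calca. No test was made on these pairs or between stages. Of 312 alternatives over 48 results, 255 stayed the same, 54 moved and 3 reversed. A log2 ratio counted as the same within its counting interval, or within the SD between the E16.5 libraries of its main value. A share did so within its exact interval. In ratios to E16.5 the counting interval takes the E16.5 mean as fixed. A reversal needed the opposite sign and a main interval that excluded no change. The alternatives on shared barcodes, on the 3 highest cells and on 10000 UMIs were chosen after seeing the data. Causes were not tested.

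The reversed log2 ratios to E16.5 were -1.69 for Mrgprb1 at E18.5 without the 3 highest cells, -0.072 for Mrgprb1 at P0 without cells of another lineage, and 0.035 for Mrgprb2 at E18.5 with mast cells taken by marker share. Calca at E18.5, which lay within the spread of E16.5, also changed sign, without every shared barcode and without E16.5 replicate 2 (given after). The value of -1.69 rests on 1 UMI. Taking cells by marker share also moved Mrgprb1 at E18.5 to 2.99 and Calca at E18.5 to 0.95, and the log2 ratio of mast to other codes to 9.68 (Mrgprb1, P0), 6.64 (Mrgprb2, E16.5), 7.25 (Calca, E18.5) and 6.88 (Calca, P0). Without cells of another lineage Mrgprb1 at E18.5 was 2.75. With the mean over cells, the ratio to E16.5 was 0.21 (Mrgprb1, P0) and 0.95 (Calca, P0). For Mrgprb2 in the adult, where no UMI was counted, the value of -1.19 is only the limit of 3 UMIs. By the same mean, the ratio of mast to other codes was 4.47 (Mrgprb1, P0), 2.67, 5.74 and 5.00 (Calca at E16.5, E18.5 and P0). Without the 3 highest cells, Mrgprb1 at P0 was 0.34 and Mrgprb2 at E18.5 -1.42. Without every shared barcode, Mrgprb2 was -1.55 at E18.5 and -2.77 at P0, Calca -1.18 and 0.77, and the ratio of mast to other codes at E16.5 was 4.59 for Mrgprb2 and 2.86 for Calca, and the adult share with Calca 0%.

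Shares at 1000 UMIs for Calca were 4.98%, 7.36%, 18.8% and 4.35% from E16.5 to the adult. Without thinning they were 23.3%, 22.7% and 24.9% from E16.5 to P0, where the P0 share includes the 274 shallow cells of Mast4. At 2000 UMIs they were 9.43% (E16.5), 29.8% (P0) and 16.7% (adult), and at 10000 UMIs 16.2%, 21.9% and 42.8% from E16.5 to P0. For Mrgprb2 they were 15.5%, 5.91% and 2.25% without thinning and 10.7%, 4.64% and 2.14% at 10000 UMIs, and for Mrgprb1 at E16.5 1.49% without thinning. A 2-fold rule called 6 list genes higher and 10 lower at E18.5, 5 and 5 at P0, and 2 lower in the adult. Without a minimum count 2 were higher at P0 (Ace and Ramp3), and without the shallower cells of shared barcodes 2 lower in the adult (Mcpt4 and Tpsab1). Of the 5 most alike genes, Spearman's rank correlation kept 1, 1, 0 and 2, and a pseudocount of 10 kept 2, 1, 2 and 2 (Mrgprb1, Mrgprb2, Tac1, Calca). Leaving out either E16.5 library, the ratio to E16.5 was 2.12 to 2.40 for Mrgprb1 at E18.5 and 1.80 to 2.55 for Calca at P0, and for Calca at E18.5 -0.20 to 0.56.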
